A study of Mus musculus and Homo sapiens with 176 samples.

Results

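The difference between NeuN+ and NeuN- nuclei that prefrontal cortex and cerebellum have in common was measured in 8 RNA sequencing libraries of 1 mouse, out of 176 samples in the series. They are all the RNA libraries, 4 NeuN+ against 4 NeuN-, with 2 libraries in each of the 4 groups: NeuN+ and NeuN- of prefrontal cortex, and NeuN+ and NeuN- of cerebellum. The labels give the mouse as number 3, strain C57BL/6, aged 8 to 10 weeks, for all 4 groups. They name no genotype change or treatment for any group. The other 168 samples were not analysed here. The labels do not say what separates replicates 1 and 2 of a group, so they may differ for technical reasons only. Each p-value below concerns libraries of 1 mouse and says nothing of other mice.

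NeuN is the neuronal nuclear antigen encoded by Rbfox3, an RNA-binding protein that regulates splicing. Most mature neurons carry it, and some cerebellar neurons, such as Purkinje cells, stain weakly or not at all, so sorting of nuclei on NeuN collects neurons in the positive gate and glia, vascular cells and weakly stained neurons in the negative gate. The neurons of the regions differ: cortical pyramidal cells and interneurons in the prefrontal samples, mostly granule cells in cerebellum. A comparison with region as a block asks which RNA differences between the gates occur in both regions rather than in neurons of one region alone.

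Values are gene-level FPKM (fragments mapped to a gene, divided by its transcript length and by the library's mapped fragments). They are printed as deposited, and tests used FPKM scaled per library. A log2 change is NeuN+ minus NeuN- on log2(scaled FPKM + 1), and each fold below is that change as a ratio, which understates the change of low genes. A feature was called shared where limma with region as a block gave an adjusted p under 0.05 and where, in each region, both NeuN+ libraries lay on the same side of both NeuN- libraries. The residual spread of this block fit holds, besides replicate differences, any difference of the change between regions. Its p-values therefore also reflect how far the regions disagree, and those of a region tested alone do not.

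The prefrontal NeuN- libraries stood apart from the rest. Their FPKM summed to 426851 and 414230, against 289350 to 307198 in the other 6 libraries. Rbfox3 itself stood at 16.2 and 15.7 FPKM in prefrontal NeuN+ and 14.2 and 12.3 in prefrontal NeuN-, and at 123 and 119 in NeuN+ of cerebellum against 33.3 and 34.5 in cerebellar NeuN-. It was higher in NeuN+ in both regions, by 0.47 in prefrontal cortex and 1.81 in cerebellum on the log2 scale (limma, block adjusted p = 0.013). The prefrontal separation of Rbfox3 was thus the smaller (difference 1.34, limma adjusted p = 3.3e-05).

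Summed markers described the gates as follows. The 6 neuronal markers (Snap25, Syt1, Stmn2, Map2, Celf4 and Rbfox3) summed to 1318 and 1315 FPKM in prefrontal NeuN+ and 1941 and 2022 in prefrontal NeuN-, and to 1241 and 1254 in NeuN+ of cerebellum and 607 and 621 in cerebellar NeuN-. The NeuN- sum was therefore 150% of the NeuN+ sum in prefrontal cortex and 49.2% in cerebellum, so the prefrontal NeuN- libraries went against their label for this sum. Snap25 dominated the sum of deposited FPKM, at 980 and 976 in prefrontal NeuN+ against 1579 and 1664 in NeuN-. Syt1 (89.8 and 87.8 against 72.5 and 66.6) and Celf4 (92.0 and 92.2 against 63.1 and 62.0) followed the label there, as did Rbfox3. Snap25 and Stmn2 did not. Glial sums followed the labels in both regions: astrocyte markers summed in NeuN+ to 6.09% (prefrontal cortex) and 7.52% (cerebellum) of their NeuN- value, and oligodendrocyte markers 4.00% and 13.1%. Microglial markers were 2.46% in prefrontal cortex and 50.0% in cerebellum, where the NeuN- sum was only 14.7 and 15.5 FPKM. Vessel markers were 1.56% and 1.36%. In prefrontal NeuN- Vtn held 104 and 116 FPKM of a vessel sum of 111 and 121. In cerebellar NeuN- it held 48.3 and 53.4 of 57.3 and 64.3. Pdgfrb held nearly all of the rest, so these percentages describe Vtn and Pdgfrb, and the endothelial markers were near 0 in NeuN- too. Cldn5 and Flt1, which define endothelium, were listed at 0 in all 4 NeuN+ libraries, as were the fibroblast gene Col1a1 and the ependymal gene Foxj1. Red blood cell markers were at 32.3% of the NeuN- level in prefrontal NeuN+ and at 113% in cerebellar NeuN+. The part of these contributions in the results below was not tested, and in sorted bulk nuclei fewer cells of a type and less RNA per cell cannot be told apart.

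**Figure D1:**
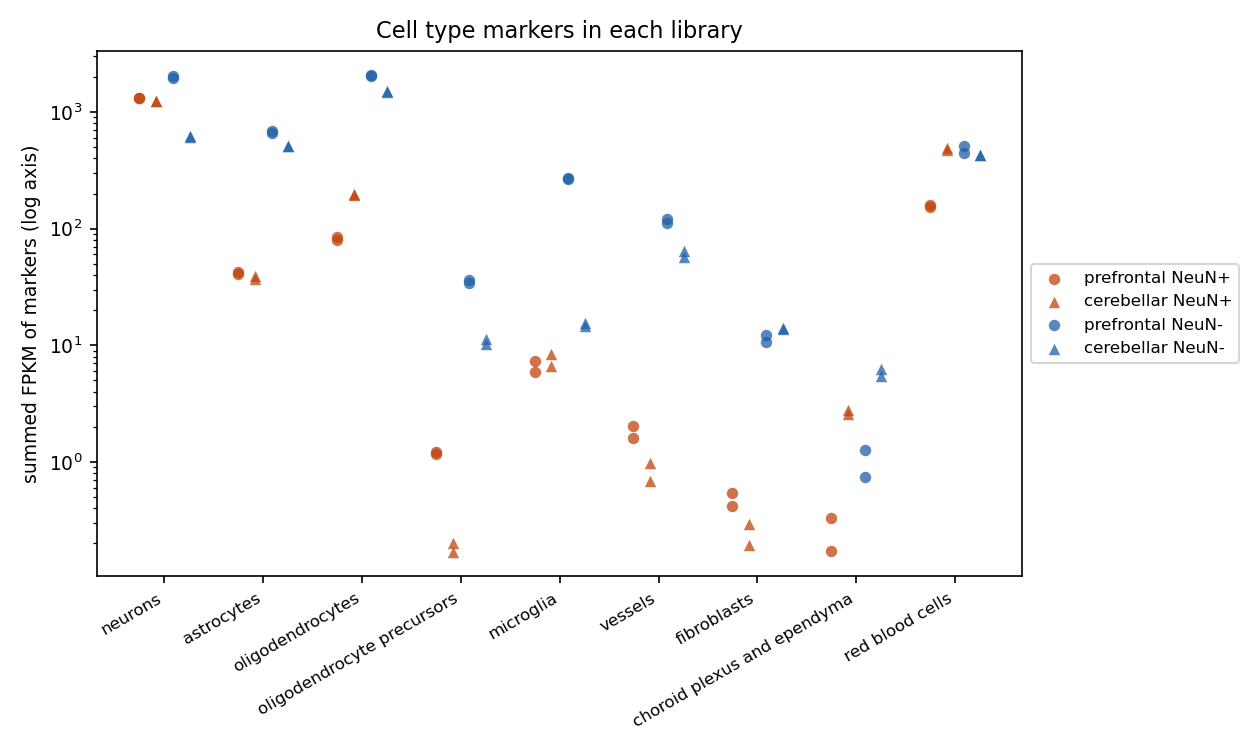
Summed FPKM of the marker genes of 9 cell types (log axis) in each of the 8 libraries, 1 point per library. Glial, vessel and fibroblast sums lie lower in NeuN+ in both regions, while the neuronal sum of prefrontal NeuN- (1941 and 2022) lies above that of prefrontal NeuN+ (1318 and 1315).

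Of 14367 features tested, 5919 (41.2%) were called with region as a block: 2634 higher in NeuN+ (18.3%) and 3285 lower (22.9%). Of these, 5821 met the shared definition, 2585 higher (18.0%) and 3236 lower (22.5%), and 98 did not. The excess of lower over higher calls depended on library scaling: unscaled FPKM gave 2058 higher and 3844 lower, FPKM rescaled to a common sum 3191 and 2684, and quantile normalization 3738 and 2701. Over these settings the median prefrontal change of all features ran from -0.19 without scaling to 0.17 with a common sum, against -0.01 with the scaling used. Under all 4 scalings 4327 of the 5821 features (74.3%) were shared in the same direction, 1994 higher and 2333 lower.

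Large shared changes were mostly losses. At least 2-fold in both regions, 275 features were higher in NeuN+ (1.91%) and 968 lower (6.74%). At least 4-fold the counts were 26 and 319, and at least 8-fold 3 and 91. The 3 higher features at 8-fold were the small RNAs Snord49a, Rnu12 and Mir7026, each listed at 0 in at least 3 NeuN- libraries, and FPKM of such short RNAs are imprecise. Mir7026 ran from 79.8 to 709 FPKM between the cerebellar NeuN+ libraries, so no fold is given for it.

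Each region tested alone, with a residual spread that leaves out the difference between regions, gave more calls than the block test. Prefrontal cortex had 10424 called features (72.6%), 5025 higher and 5399 lower, and cerebellum 10292 (71.6%), 4657 higher and 5635 lower. The regional contrasts use no library in common. Higher in both were 2182 features, 43.4% of the prefrontal and 46.9% of the cerebellar higher calls. Of all features, 32.4% were called higher in cerebellum and 35.0% in prefrontal cortex. Lower in both were 2910, 53.9% of the prefrontal and 51.6% of the cerebellar lower calls, against 39.2% of all features called lower in cerebellum and 37.6% in prefrontal cortex. In opposite directions were 2598 features, 1380 of them higher in prefrontal NeuN+ and lower in cerebellar NeuN+. Across the 14367 features, which are not independent replicates, the regional changes had a Pearson r of 0.38 and a Spearman rho of 0.32.

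**Figure D2:**
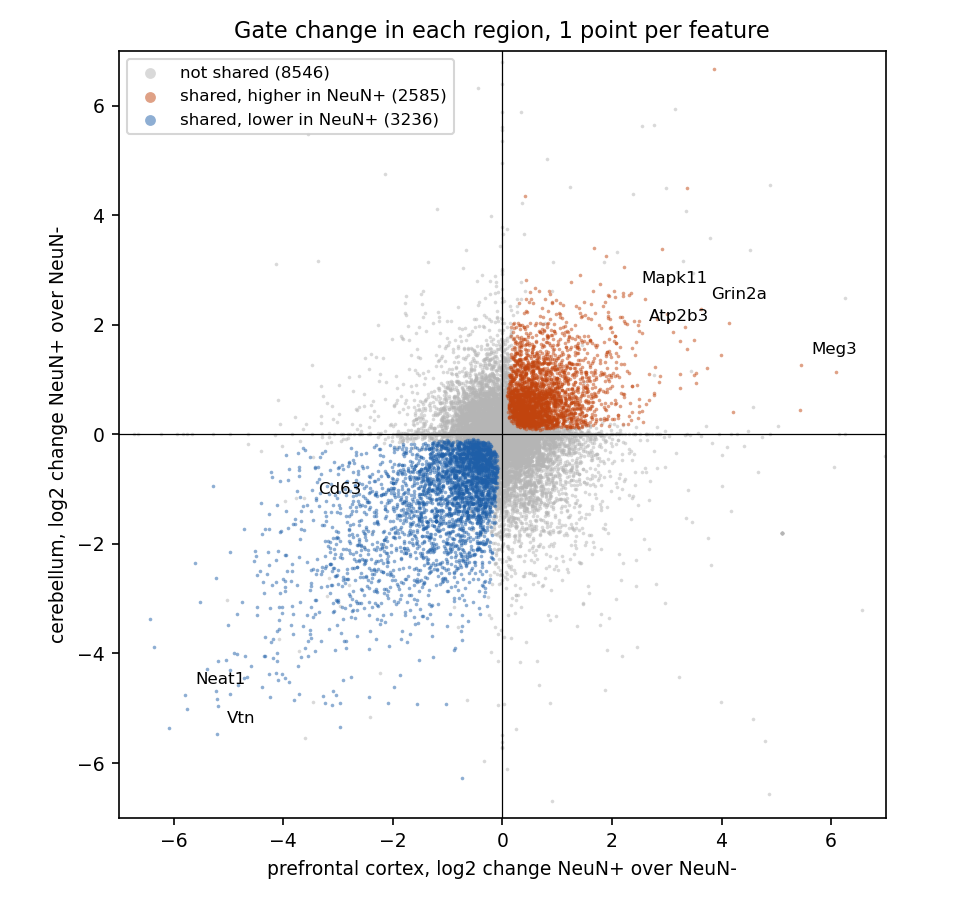
Log2 change NeuN+ over NeuN- in prefrontal cortex (horizontal) and cerebellum (vertical), 1 point per feature, with shared features coloured; 29 features beyond 7 on either axis, 5 of them shared, are not drawn. The lower left quadrant reaches farther from the origin than the upper right, and the off-diagonal quadrants hold the features that moved in opposite directions.

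Among genes other than small RNAs and predicted genes, with a mean of at least 5 FPKM in the higher gate, the 15 shared genes with the largest gain in NeuN+, ranked by the smaller of their regional changes, gained 4.12- to 5.52-fold in the region of the smaller change. The largest adjusted p among them was 2.3e-04 (limma), and all 15 were shared under all 4 scalings. They were Tmem91, Mapk11, Rnf112, Grin2a, Cdh8, Ptprr, Rapgef4, Crhr1, Srrm3, Ftx, Il18bp, Ano3, Ptchd1, Retn and Chrd. They include signalling enzymes, receptors and adhesion proteins, a splicing regulator and a long noncoding RNA.

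Tmem91, which encodes a small transmembrane protein (chr7:26454159-26460185 in mm9), stood at 78.1 and 78.6 FPKM in prefrontal NeuN+ and 15.9 and 12.9 in prefrontal NeuN-, and at 16.8 and 20.7 in NeuN+ of cerebellum and 2.55 and 2.61 in cerebellar NeuN-. Its level was higher in prefrontal cortex in each gate, and in each region NeuN+ lay far above NeuN-. The gain was 6.06-fold in prefrontal cortex and 5.52-fold in cerebellum (limma block change 2.53, SE 0.0971, adjusted p = 5.6e-06), and the sizes did not differ by test (limma adjusted p = 0.48). Mapk11, the p38 beta MAP kinase (chr15:88972914-88980036), stood at 65.9, 67.5, 68.7 and 69.8 FPKM in the 4 NeuN+ libraries and at 14.8, 14.3, 10.8 and 10.8 in the 4 NeuN- libraries, prefrontal libraries first. Its NeuN+ level was nearly the same in the regions, and the gain was 5.09-fold and 5.98-fold (block change 2.46, SE 0.0731, limma adjusted p = 2.6e-06).

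Other signalling genes of this group followed. Rapgef4, the cAMP-activated exchange factor Epac2 for the small GTPase Rap, stood at 58.8 and 59.4 FPKM against 8.16 and 7.26 in prefrontal cortex and 68.6 and 70.8 against 14.52 and 14.57 in cerebellum. Ptprr, a receptor-type tyrosine phosphatase that acts on MAP kinases, stood at 19.2 and 19.7 against 3.85 and 4.33, and at 54.1 and 56.5 against 8.61 and 8.39; another feature, 4933416C03Rik, overlaps it. Rnf112, a RING-finger GTPase of the brain, stood at 38.5 and 39.3 against 9.15 and 7.70, and at 109 and 110 against 17.2 and 18.7. That the gates do not overlap in either region is part of the shared definition. In Rapgef4, Ptprr and Rnf112 the level in each gate was higher in cerebellum.

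Receptors and surface proteins among the leading gains included the NMDA receptor subunit GluN2A (Grin2a), the stress hormone receptor Crhr1 and the adhesion protein cadherin 8 (Cdh8). Grin2a stood at 13.1 and 14.2 FPKM against 0.305 and 0.211 in prefrontal cortex, and at 8.74 and 9.39 against 1.02 and 1.15 in cerebellum. It was 12.3-fold higher in prefrontal and 4.88-fold higher in cerebellar NeuN+, a difference in size (limma adjusted p = 8.5e-05). Crhr1 stood at 6.26 and 5.90 against 0.852 and 0.528, and at 18.7 and 18.7 against 3.13 and 3.84, gains of 4.56-fold and 4.43-fold. Cdh8 stood at 16.4 and 15.0 against 2.62 and 3.62, and at 15.9 and 15.7 against 1.11 and 0.971. Chrd, the secreted BMP antagonist chordin, gained 4.12-fold and 6.16-fold, and the thrombopoietin gene Thpo overlaps it. Retn, the adipokine resistin, stood at 10.8 and 12.3 against 0.511 and 0.841 FPKM in prefrontal cortex, and at 3.43 and 2.78 in cerebellar NeuN+ while listed at 0 in both cerebellar NeuN- libraries, so no cerebellar fold is given for it.

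Srrm3, a regulator of neuronal microexon splicing, and Ftx, a long noncoding RNA of the X inactivation centre, were the members of this group with roles in the nucleus. Srrm3 stood at 10.1 and 9.78 FPKM against 1.84 and 1.70 in prefrontal cortex and at 38.7 and 41.9 against 7.91 and 8.96 in cerebellum. The gain was nearly identical in the regions, 4.43-fold and 4.39-fold (block change 2.14, SE 0.0727, limma adjusted p = 3.6e-06). Ftx stood at 37.4 and 38.6 against 5.30 and 5.38, and at 37.5 and 39.9 against 8.19 and 8.28; its locus also holds 3 microRNA features. Of the 15 leading gains, 10 had a called difference in size between the regions, so for most of these genes the direction was common and the size was not.

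**Figure D3:**
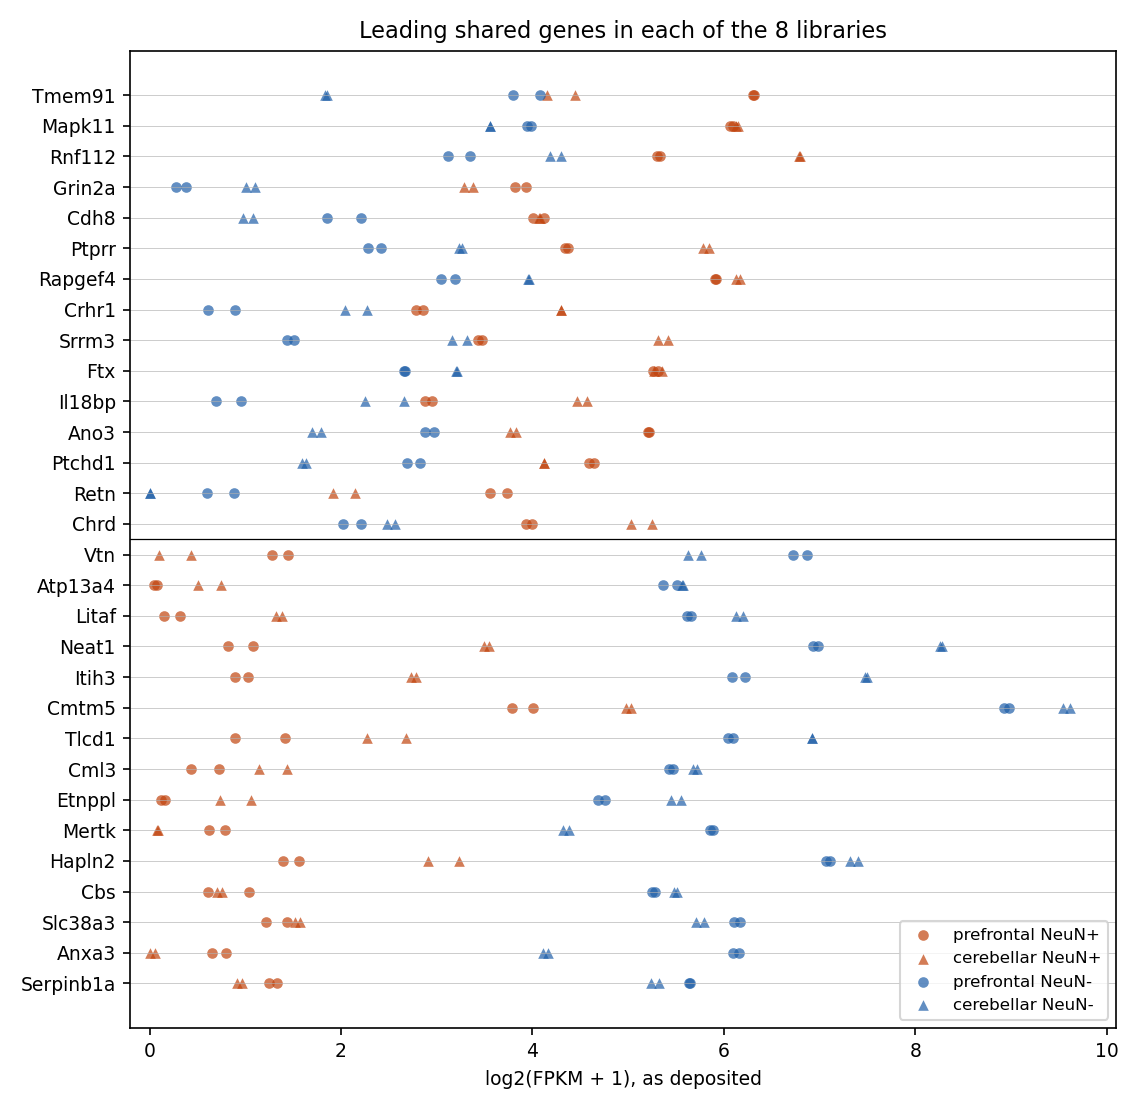
Deposited FPKM as log2(FPKM + 1) of the 15 leading gains (above the line) and 15 leading losses (below it) in each of the 8 libraries. In every gene the NeuN+ points (orange) and NeuN- points (blue) of a region, read by the same symbol, are separated. The shared definition required this of the scaled values. The gap is wider for the losses.

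The promoters of the leading pair in each direction are shown to let their base composition be seen beside the values, since these genes change together in both regions. Each runs from 250 bases before to 50 bases after the RefSeq start in GRCm38.p6, 5′ to 3′ on the gene's strand, with each CpG dinucleotide in capitals. Tmem91 lies at chr7:25675117-25675416 (minus strand, 11 CpG), Mapk11 at chr15:89149557-89149856 (minus strand, 24 CpG), Vtn at chr11:78498870-78499169 (plus strand, 9 CpG) and Atp13a4 at chr16:29541434-29541733 (minus strand, 8 CpG).
Tmem91: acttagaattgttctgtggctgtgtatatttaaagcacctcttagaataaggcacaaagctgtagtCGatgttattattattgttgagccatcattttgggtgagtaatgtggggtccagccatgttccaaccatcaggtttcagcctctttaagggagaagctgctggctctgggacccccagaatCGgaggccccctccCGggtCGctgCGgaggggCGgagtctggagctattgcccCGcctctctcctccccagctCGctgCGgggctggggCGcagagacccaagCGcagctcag
Mapk11: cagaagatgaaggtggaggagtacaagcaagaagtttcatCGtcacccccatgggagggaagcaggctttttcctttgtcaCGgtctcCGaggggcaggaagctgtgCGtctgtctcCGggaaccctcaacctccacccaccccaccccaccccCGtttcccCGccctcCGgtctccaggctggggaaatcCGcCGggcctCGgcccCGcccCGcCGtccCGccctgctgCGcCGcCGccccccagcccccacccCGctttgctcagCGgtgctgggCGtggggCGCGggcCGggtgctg
Vtn: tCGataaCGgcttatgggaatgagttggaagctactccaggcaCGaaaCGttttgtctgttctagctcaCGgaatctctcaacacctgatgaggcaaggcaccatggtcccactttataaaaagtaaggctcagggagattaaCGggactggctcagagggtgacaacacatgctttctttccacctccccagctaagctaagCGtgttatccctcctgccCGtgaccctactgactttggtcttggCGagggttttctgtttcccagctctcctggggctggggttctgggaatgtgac
Atp13a4: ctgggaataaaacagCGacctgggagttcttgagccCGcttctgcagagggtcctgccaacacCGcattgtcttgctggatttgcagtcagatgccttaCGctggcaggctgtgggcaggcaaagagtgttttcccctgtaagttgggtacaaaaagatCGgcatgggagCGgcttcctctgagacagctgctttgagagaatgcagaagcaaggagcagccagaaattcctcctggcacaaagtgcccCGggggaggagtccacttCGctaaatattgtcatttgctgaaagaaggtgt
Over the 27025 RefSeq promoters of the same length the median was 7 CpG (quartiles 3 and 21), and 20% had at least as many as Mapk11, 41.9% as Tmem91, 46.2% as Vtn and 49.0% as Atp13a4. Of the 4, only Mapk11 lay above the upper quartile, and Tmem91, Vtn and Atp13a4 lay between the median and the upper quartile. A CpG count describes the letters and is neither a methylation value nor a binding site.

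The 15 leading losses fell 17.6- to 37.1-fold in the region of the smaller change, with a largest adjusted p of 1.3e-05 (limma), and all 15 were shared under all 4 scalings. They were Vtn, Atp13a4, Litaf, Neat1, Itih3, Cmtm5, Tlcd1, Cml3, Etnppl, Mertk, Hapln2, Cbs, Slc38a3, Anxa3 and Serpinb1a. Most of these were not on the cell type lists, which hold Atp13a4 among astrocyte genes, Hapln2 among oligodendrocyte genes, Vtn among endothelial and pericyte genes and Neat1 among long noncoding RNAs. Cml3 and Serpinb1a have close paralogs, and the division of fragments among copies was not given in the sources used here.

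Vtn, the secreted adhesion protein vitronectin (chr11:78312622-78315827 in mm9), stood at 1.43 and 1.72 FPKM in prefrontal NeuN+ against 104 and 116 in prefrontal NeuN-, and at 0.346 and 0.0685 in cerebellar NeuN+ against 48.3 and 53.4 in cerebellar NeuN-. It was close to absent from every NeuN+ library. The loss was 37.1-fold and 44.1-fold (block change -5.34, SE 0.115, limma adjusted p = 1.0e-06). Atp13a4, a P5-type ATPase (chr16:29396124-29544950), stood at 0.0293, 0.0577, 0.419 and 0.678 FPKM in the 4 NeuN+ libraries and at 40.3, 44.5, 46.3 and 46.7 in the 4 NeuN- libraries, prefrontal libraries first, so its NeuN- level was nearly the same in the regions. Litaf, an endosomal membrane protein, followed the same form, with 0.109 to 1.61 FPKM in NeuN+ and 48.0 to 72.4 in NeuN-.

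Neat1, the long noncoding RNA that forms paraspeckles, stood at 0.766 and 1.12 FPKM against 125 and 121 in prefrontal cortex and at 10.6 and 10.2 against 304 and 310 in cerebellum. Its loss was 55.4-fold in prefrontal cortex and 26.97-fold in cerebellum, and the sizes differed (limma adjusted p = 3.4e-04). Cmtm5, a MARVEL-domain membrane protein, was the most abundant of the group, at 12.7 and 15.1 against 484 and 503, and at 30.5 and 31.6 against 743 and 786. Hapln2, a link protein of the matrix at nodes of Ranvier, stood at 1.95 and 1.63 against 137 and 134, and at 8.37 and 6.53 against 158 and 168. The NeuN+ level of each of these 3 RNAs was higher in cerebellum than in prefrontal cortex.

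Several leading losses encode metabolic enzymes and transporters. Cbs, cystathionine beta-synthase of the transsulfuration pathway, stood at 0.523 and 1.05 FPKM against 37.2 and 38.0 in prefrontal cortex and at 0.684 and 0.632 against 43.7 and 44.5 in cerebellum. Slc38a3, a glutamine transporter, stood at 1.32 and 1.70 against 67.7 and 70.8, and at 1.86 and 1.98 against 54.5 and 51.5. Etnppl, which breaks down phosphoethanolamine, fell 21.0-fold and 24.6-fold. Mertk, a receptor for the uptake of dying cells and debris, stood at 0.726 and 0.535 against 56.8 and 58.0, and at 0.0532 and 0.0630 against 18.9 and 19.9. In all 4 genes the lowest NeuN- library exceeded the highest NeuN+ library of either region. Among the 15 leading losses, 7 had a called difference in size between the regions.

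**Figure D4:**
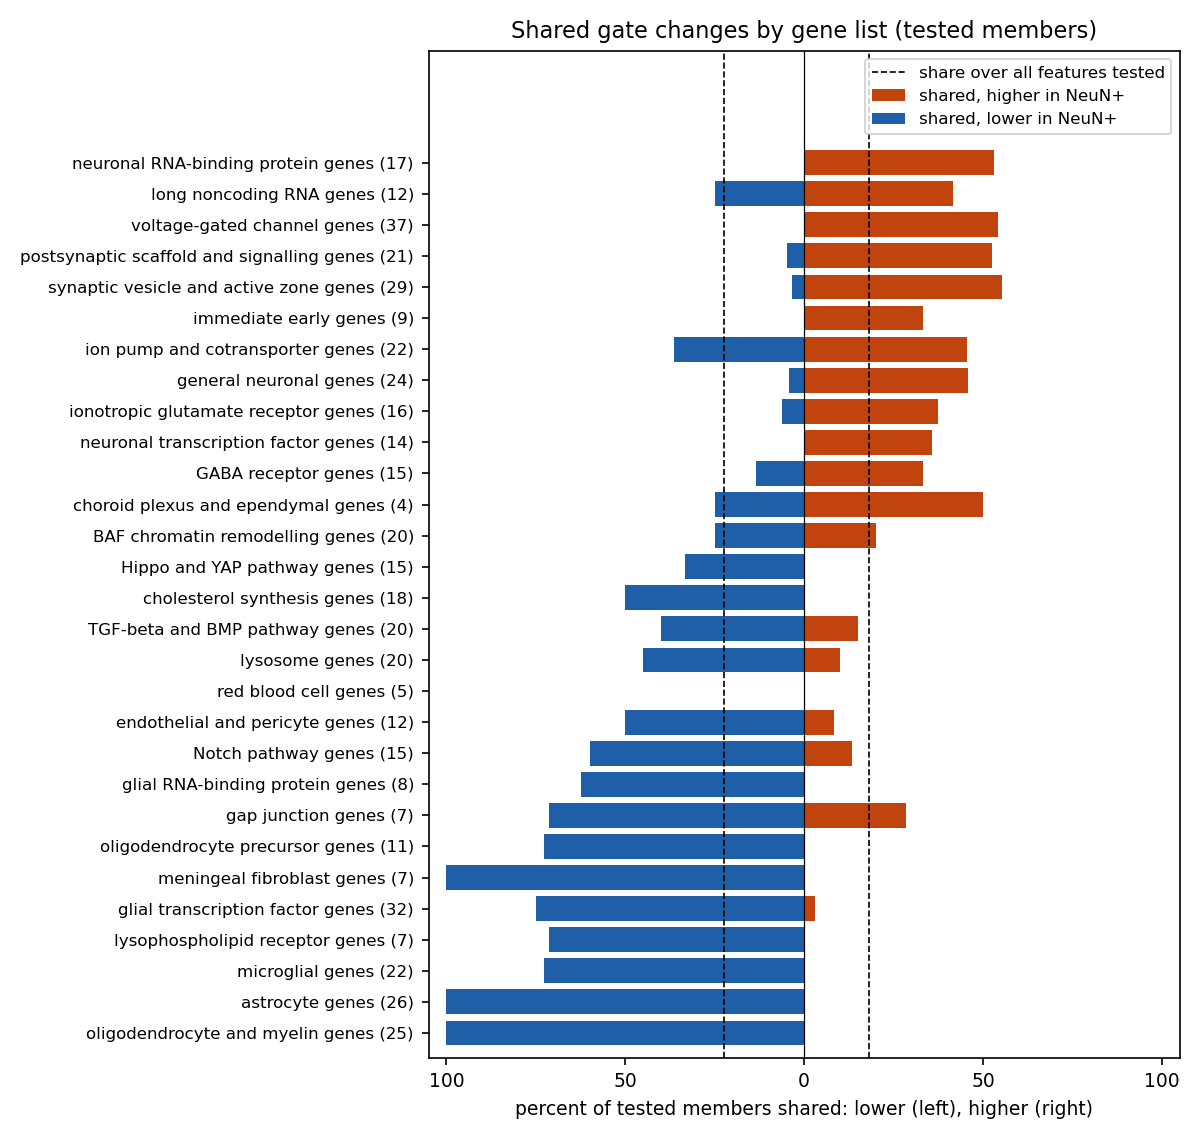
Percent of the tested members of each gene list that were shared and lower (left) or higher (right) in NeuN+, ordered by the list's median change, with the number tested in brackets; dashed lines mark the shares over all features tested (22.5% lower and 18.0% higher). All tested astrocyte, oligodendrocyte and meningeal fibroblast genes lie on the lower side, while the highest share on the higher side is 55.2%, of synaptic vesicle and active zone genes. The lists were chosen with earlier results of these data known, so the shares are descriptions.

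Gene lists for neuronal function had members shared and higher, against 18.0% of all features, though never nearly all of them. All lists here and below were chosen with earlier results of these data known, so their shares describe the members and test no enrichment. The median block change of all features was -0.04. Of 24 general neuronal genes, all tested, 11 were shared and higher and 1, the neurofilament Nefl, was shared and lower (median change 0.31). Only 8 of the shared genes, Nefl included, were shared under all 4 scalings. With the regions tested alone, 9 of the 24 were called higher in both. The median change was 0.09 in prefrontal cortex and 0.74 in cerebellum. Syp, the synaptic vesicle protein synaptophysin, stood at 12.6 and 11.7 FPKM against 6.89 and 5.48 in prefrontal cortex and at 12.9 and 13.7 against 6.70 and 7.71 in cerebellum. Celf4 gained 1.72-fold and 2.605-fold, and Thy1 1.63-fold and 1.41-fold. Nefl stood at 103 and 98.2 against 154 and 175, and at 12.8 and 15.3 against 27.5 and 25.9.

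The other 12 general neuronal genes were not shared, and 6 of the 24 were called in opposite directions in the regions. Snap25, the SNARE protein of transmitter release, stood at 980 and 976 FPKM in prefrontal NeuN+ against 1579 and 1664 in prefrontal NeuN-, and at 736 and 748 in cerebellar NeuN+ against 379 and 382 in cerebellar NeuN-. Its change was -0.49 in prefrontal cortex and 0.96 in cerebellum (limma adjusted p = 2.4e-04 and 9.5e-06), and the block test did not call it (change 0.24, SE 0.293, limma adjusted p = 0.55). Stmn2, a tubulin-binding protein of growing axons, behaved likewise at -0.42 and 0.73. Snap25 and Stmn2 make up most of the neuronal marker sum given above.

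Synaptic vesicle and active zone genes had 29 of 30 members tested, of which 16 were shared and higher and 1, Syt11, lower (median 0.43). The active zone scaffold Rims2 gained 2.21-fold and 3.17-fold, and the calcium sensor Syt4 2.15-fold and 2.38-fold. Syt11 fell 1.24-fold and 1.11-fold and was not shared under every scaling. Of these 29 genes, 8 were called in opposite directions, such as the priming factor Unc13b at 1.58 in prefrontal cortex and -1.46 in cerebellum.

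Postsynaptic genes had 21 of 27 members tested, with 11 shared and higher and 1 lower (median 0.72). Camk2b, the beta subunit of the calcium/calmodulin kinase of synapses, stood at 28.8 and 27.8 FPKM against 10.7 and 9.51, and at 63.7 and 63.2 against 13.8 and 14.3. It gained 3.07-fold and 4.28-fold, while its partner Camk2a gained 2.58 on the log2 scale in prefrontal cortex and 0.22 in cerebellum, where it stood at 1.14 and 0.987 against 0.707 and 0.846. The scaffold Homer1 rose 2.17-fold and 2.20-fold, and the scaffold Dlgap1 2.09-fold and 2.45-fold, which differed in size (limma adjusted p = 0.018). Homer3, the Homer protein of Purkinje cells, was the exception, at 0.164 and 0.193 against 3.10 and 3.12, and at 5.65 and 4.81 against 10.3 and 11.5; another gene, Ddx49, overlaps it.

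Voltage-gated channel genes had 37 of 41 members tested, with 20 shared and higher and 0 lower (median 0.79). Kcnc1, the fast potassium channel Kv3.1, stood at 13.4 and 13.1 FPKM against 3.48 and 3.37 in prefrontal cortex and at 73.8 and 72.1 against 12.5 and 13.4 in cerebellum (3.67-fold and 5.31-fold). The N-type calcium channel Cacna1b gained 4.23-fold and 2.50-fold. The sodium channels Scn1a and Scn2a1 gained 2.22 and 1.04 in prefrontal cortex and 1.28 and 2.21 in cerebellum on the log2 scale, so the order of their gains was reversed between regions. Cacna1a was left out for a failed value, and 3 other channels were below the FPKM minimum.

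Ionotropic glutamate receptor genes had 16 of 17 members tested, with 6 shared and higher, 1 lower and 8 called in opposite directions (median 0.28). Beside Grin2a, the obligatory NMDA subunit Grin1 stood at 41.5 and 37.4 FPKM against 2.097 and 1.61 in prefrontal cortex and at 30.4 and 28.9 against 9.69 and 10.7 in cerebellum; Lrrc26 and Grin1os overlap it. The kainate receptor Grik2 gained 3.81-fold and 4.35-fold. Grin2b and Gria1 were higher in prefrontal NeuN+ (2.43 and 1.37) and lower in cerebellar NeuN+ (-2.29 and -3.50). Grin2c had the reverse pattern, at 0.236 and 0.260 against 24.9 and 23.3 FPKM in prefrontal cortex and 131 and 132 against 14.7 and 14.2 in cerebellum.

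Of GABA receptor genes 15 were tested. Shared and higher were 5, among them Gabrd, Gabrb2 and Gabbr2, and shared and lower were Gabrg1 and Gabbr1 (median 0.19). The shares were 33.3% higher and 13.3% lower, against 18.0% and 22.5% of all features. Gabrd, the delta subunit of extrasynaptic receptors, stood at 44.8 and 46.5 FPKM against 18.8 and 18.1 in prefrontal cortex and at 112 and 117 against 37.0 and 39.7 in cerebellum, gains of 2.81-fold and 2.94-fold whose sizes did not differ by test (limma adjusted p = 0.45). The subunits of the GABA-B receptor parted: Gabbr2 gained 1.99-fold and 2.04-fold, while Gabbr1 fell 1.18-fold and 1.21-fold. Gabbr1 and Gabrg1 were not shared under every scaling.

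Neuronal RNA-binding protein genes had 17 of 19 members tested, with 9 shared and higher and 0 lower (median 0.93, the highest of the 29 lists). Rbfox1, Rbfox2 and Rbfox3, the splicing factors of the NeuN family, were all among them. Rbfox2 stood at 6.22 and 6.37 FPKM against 2.40 and 1.89, and at 5.78 and 5.31 against 1.66 and 1.48; it gained 2.62-fold and 2.56-fold and Rbfox1 2.24-fold and 2.31-fold, both with more equal sizes in the regions than Rbfox3. The microexon regulator Srrm4 gained 2.57-fold and 3.46-fold. Elavl3, Elavl4, Nova1 and Ptbp2, also known as neuronal regulators, were among the 8 not shared. Neuronal transcription factor genes had 14 of 18 members tested and 5 shared and higher: Peg3, Neurod2, Myt1l, Hivep2 and Camta2, the last not under every scaling. Neurod2 stood at 9.50 and 8.19 against 4.24 and 3.97, and at 37.0 and 36.6 against 15.9 and 18.1. Immediate early genes had 9 of 15 tested, with Fos, Jund and Ier2 shared and higher (33.3% against 18.0% of all features). Fos gained 2.73-fold and 2.03-fold. Tested alone, prefrontal cortex did not call Ier2 and cerebellum did not call Jund (limma adjusted p = 0.075 and 0.086).

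Astrocyte genes were lower without exception. All 26 were tested and all 26 were shared, lower and shared under all 4 scalings, against 22.5% of all features lower (median -3.12). This list too was chosen with earlier results known, so the comparison is a description. F3, the coagulation factor receptor known as tissue factor, stood at 22.1 and 22.8 FPKM against 492 and 517 in prefrontal cortex and at 5.18 and 6.06 against 110 and 113 in cerebellum, losses of 18.3-fold and 17.04-fold. Ntsr2, a neurotensin receptor, fell 20.1-fold and 16.6-fold, and the growth factor receptor Fgfr3 16.3-fold and 20.7-fold. The glutamate transporters differed: Slc1a3 changed by -4.89 and -3.99 on the log2 scale and Slc1a2 by -1.63 and -1.76. Slc1a2 kept 24.3 and 23.7 FPKM in prefrontal NeuN+ against 91.3 and 89.2 in NeuN-.

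Oligodendrocyte and myelin genes had 25 of 26 members tested, and all 25 were shared, lower and shared under all 4 scalings (median -3.32). Mbp, myelin basic protein, stood at 54.3 and 49.5 FPKM against 1085 and 1081 in prefrontal cortex and at 58.8 and 56.5 against 696 and 716 in cerebellum, losses of 17.4-fold and 12.1-fold. Mag fell 12.2-fold and 14.9-fold. Gjc3, a glial gap junction subunit, had the smallest loss of the list (-0.45 and -1.10). Of oligodendrocyte precursor genes, 11 of 14 were tested and 8 were shared and lower, among them the receptor phosphatase Ptprz1 (13.3-fold and 18.8-fold) and Pdgfra, the growth factor receptor of these cells, at 0.732 and 0.735 against 25.3 and 27.5 and at 0.0374 and 0.0684 against 2.00 and 2.04. Of the 8, 5 were shared under all 4 scalings (not Cspg4, Cspg5 and Matn4), and the other 3 tested precursor genes were called in opposite directions in the regions.

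Microglial genes, with 22 of 24 tested, had 16 shared and lower and 0 higher. On log2(scaled FPKM + 1), which understates changes of low genes, their median change was -3.69 in prefrontal cortex and -0.80 in cerebellum. Tyrobp, an adaptor of innate immune receptors, stood at 2.83 and 4.33 FPKM against 79.9 and 69.8, and at 0.163 and 0.435 against 9.72 and 10.4. The receptor Csf1r stood at 1.73 and 2.56 against 80.2 and 86.6, and at 0.210 and 0.101 against 4.07 and 5.25. On log2(scaled FPKM + 1) it fell 23.2-fold in prefrontal cortex and 4.96-fold in cerebellum (difference in size, limma adjusted p = 1.6e-04). Its cerebellar levels were low, where this scale understates a change, so the difference need not hold for the ratio of FPKM. P2ry12, the purinergic receptor of resting microglia, was not shared: it stood at 1.62 and 1.68 against 118 and 119 in prefrontal cortex and at 2.98 and 4.50 against 3.47 and 3.90 in cerebellum, where the gates overlapped; its locus overlaps Med12l. Cd68 and Ctss, lysosomal proteins of phagocytes, were also not shared. The summed microglial markers of cerebellar NeuN- given above were only 14.7 and 15.5 FPKM. The part of such low levels in the smaller cerebellar changes on this scale was not tested.

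Vessel and meningeal genes were sparse. Of 22 endothelial and pericyte genes 12 were tested; 6 were shared and lower, and 1, the endothelial adhesion protein Esam, was shared and higher. Besides Vtn the losses included the pericyte genes Pdgfrb (4.90-fold and 10.3-fold) and Kcnj8, which was listed at 0 in all 4 NeuN+ libraries and stood at 5.95 and 6.29 FPKM in prefrontal and 1.07 and 1.20 in cerebellar NeuN-. Esam stood at 4.02 and 3.35 against 0.824 and 1.55 in prefrontal cortex, and at 1.51 and 2.46 in cerebellar NeuN+ while listed at 0 in both cerebellar NeuN- libraries. All 7 tested meningeal fibroblast genes of 10 were shared and lower, led by the transporter Slc6a13, at 0.189 and 0.442 against 19.1 and 20.8 in prefrontal cortex and at 26.4 and 27.7 in cerebellar NeuN- while listed at 0 in both cerebellar NeuN+ libraries. Of 4 tested choroid plexus and ependymal genes, 2, Clic6 and Ccdc153, were shared and higher and 1, Ttr, lower. Clic6 in prefrontal cortex stood at only 0.146 and 0.122 FPKM against 0 and 0. Its change there, 0.19, was not called (limma adjusted p = 0.15). None of the 5 tested red blood cell genes was called by limma, and 0 of them had an unadjusted p under 0.05; Hbb-b1, for example, had a block change of -0.59 (SE 0.348, adjusted p = 0.21).

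Glial transcription factor genes had 32 of 36 members tested, with 24 shared and lower and 1, Nfix, shared and higher (median -1.26). Id3 and Id4, inhibitors of basic helix-loop-helix factors, led the list. Id3 stood at 2.65 and 1.91 FPKM against 125 and 123 in prefrontal cortex and at 1.19 and 2.88 against 48.9 and 48.8 in cerebellum. The factors of the oligodendrocyte lineage Olig1 (-4.04 and -1.77), Olig2 (-2.98 and -1.05) and Sox10 (-1.45 and -2.26) and the astrocyte factor Sox9 (-1.79 and -2.07) were shared and lower, as was Spi1, the microglial factor PU.1. Rest, the repressor of neuronal genes in other cells, stood at 0.0363 and 0 against 1.24 and 1.498, and at 0.0439 and 0.0260 against 2.03 and 1.81 (block change -1.31, SE 0.123, limma adjusted p = 2.6e-04). Nfix stood at 14.05 and 14.7 against 14.8 and 13.7 as deposited in prefrontal cortex, where the gates separated only after scaling, and it was not shared under every scaling.

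Glial RNA-binding protein genes had 8 of 10 members tested, with 5 shared and lower and 0 higher. Qk, quaking, which regulates splicing and stability of myelin messages, stood at 7.56 and 7.13 FPKM against 59.8 and 56.4 and at 7.70 and 8.60 against 40.0 and 42.0. Zfp36, Zfp36l1 and Zfp36l2, which mark AU-rich messages for decay, were all lower. Zfp36l2 stood at 1.26 and 1.32 against 10.9 and 9.44, and at 0.0178 and 0.0159 against 4.04 and 3.96.

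Of the Notch pathway 15 of 21 genes were tested. Shared and lower were 9 (60% against 22.5% of all features), and 2 were higher (13.3% against 18.0%). The losses held the receptors Notch1 and Notch2, the ligands Dll1 and Jag1, the targets Hes1, Hey2 and Nrarp, the coactivator Maml2 and the glycosyltransferase Mfng, and the gains held Numb, an inhibitor of Notch, and the glycosyltransferase Rfng. Notch1 stood at 0.143 and 0.170 FPKM against 1.89 and 1.501, and at 0.147 and 0.182 against 2.095 and 1.865, low levels in either gate; Mir6996 overlaps it. Numb gained 1.44-fold and 1.39-fold, and Rfng, Hes1 and Maml2 were not shared under every scaling. The cerebellar change of Rfng alone, 0.18, was not called (limma adjusted p = 0.21). Of TGF-beta and BMP pathway genes 20 of 22 were tested, with 8 shared and lower (40% against 22.5% of all features) and 3 shared and higher (15% against 18.0%). The type I receptors Tgfbr1, Bmpr1a and Bmpr1b, the type II receptor Tgfbr2, the inhibitor Smad7 and the targets Id1, Id3 and Id4 were lower, and the type II receptors Bmpr2 and Acvr2a and the transducer Smad1 were higher. Of these 3 gains, 1 was called in both regions tested alone; the cerebellar change of Acvr2a, for example, was 0.28 (limma adjusted p = 0.051). Smad1 and Smad7 were not shared under every scaling. Bmpr2 stood at 4.46 and 4.67 against 2.36 and 1.94, and at 2.18 and 2.35 against 1.04 and 1.09.

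Of Hippo and YAP pathway genes 15 of 20 were tested and 5 were shared and lower (33.3% against 22.5% of all features). These were the coactivator Wwtr1 (TAZ), the kinase Lats2, Amotl1, Amotl2 and the target Cyr61, while Yap1 was below the FPKM minimum. Wwtr1 and Lats2 were not shared under every scaling. Lysophospholipid receptor genes had 7 of 11 tested and 5 shared and lower (71.4% against 22.5%). Lpar6 stood at 0.163 and 0.222 FPKM against 103 and 119 in prefrontal cortex and at 1.34 and 1.47 against 33.3 and 34.5 in cerebellum; it lies within Rb1, so fragments of that gene could enter its value. S1pr1 fell 8.15-fold and 4.03-fold and S1pr5 4.18-fold and 2.36-fold. All 7 tested gap junction genes were shared. The lower ones were 5 connexins, among them Gja1, Gjb6, Gjc1 and Gjc3, and the higher ones were the pannexins Panx1 and Panx2. The prefrontal change of Panx2 alone, 0.31, was not called (limma adjusted p = 0.055). Gja1, connexin 43, stood at 2.79 and 2.15 against 144 and 156, and at 4.81 and 4.75 against 34.9 and 33.9.

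Cholesterol synthesis genes had 18 of 19 members tested, with 9 shared and lower (50% against 22.5% of all features) and 0 higher (median -0.35). Msmo1, a sterol demethylating oxygenase, stood at 82.7 and 85.7 FPKM against 253 and 253 in prefrontal cortex and at 11.2 and 12.7 against 48.8 and 47.5 in cerebellum. Fdft1, squalene synthase, fell 2.01-fold and 2.35-fold, and its locus overlaps Ctsb. Lysosome genes, 20 tested, had 9 lower (45% against 22.5%) and 2 higher (10% against 18.0%). The membrane protein Lamp1 stood at 21.3 and 20.5 against 76.3 and 72.3, and at 21.7 and 20.8 against 39.3 and 37.5, and the proteins of lysosomal cholesterol export Npc1 and Npc2 were lower in both regions. The sialidase Neu1 was among the higher ones, though not under every scaling.

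Ion pump and cotransporter genes, 22 tested, divided into 10 shared and higher and 8 shared and lower. These were 45.5% and 36.4%, against 18.0% and 22.5% of all features. The plasma membrane calcium pumps Atp2b1, Atp2b2, Atp2b3 and Atp2b4 were all higher. Atp2b3 stood at 15.9 and 14.9 FPKM against 2.43 and 2.15, and at 59.4 and 60.1 against 15.4 and 15.7, gains of 5.63-fold and 3.67-fold. The potassium channel Kcnj10 of glia, listed here for its part in ion clearance, stood at 0.303 and 0.381 against 21.4 and 22.9, and at 3.16 and 3.50 against 13.2 and 12.9.

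In 13 pairs of genes with related roles, one member known from neurons and the other from glia or from most cells, 8 pairs had the neuronal member shared and higher and the other shared and lower. In 4 of the 8 both members kept this under all 4 scalings. Over all features 18.0% were shared and higher and 22.5% shared and lower. Like the lists, the pairs were chosen with earlier results of these data known, so the count is a description. Chloride transport was divided in this way, with the extruder Slc12a5 higher (1.79-fold and 1.48-fold) and the importer Slc12a2 lower (4.01-fold and 1.58-fold).

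Subunits of the BAF chromatin remodelling complex that are exchanged when neurons are born also paired off. Actl6b stood at 1.59 and 1.92 FPKM against 0.614 and 0.991, and at 1.5003 and 1.61 against 0.479 and 0.510, while Actl6a stood at 17.03 and 18.3 against 27.1 and 28.5, and at 13.3 and 13.96 against 19.5 and 22.3. By length-adjusted level Actl6a remained the more abundant of the pair in all 8 libraries. Ss18l1 was higher (1.62-fold and 1.55-fold) and Ss18 lower (2.85-fold and 1.73-fold), and Dpf1 was higher while Phf10 was lower. Of all 20 BAF genes, 4 were shared and higher and 5 lower, near the 18.0% and 22.5% of all features.

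Further pairs with both members shared were Syp and Sypl, Dnm1 and Dnm2, Eno2 and Eno1, Slc2a3 and Slc2a1, and Atp1b1 and Atp1b2. Slc2a3, the neuronal glucose transporter, gained 2.01-fold and 1.90-fold, and Sypl, a relative of synaptophysin, fell 2.16-fold and 1.28-fold. Atp1b1, Eno1, Slc2a1 and Dnm2 were not shared under every scaling. Tested alone, prefrontal cortex did not call Eno1 or Slc2a1 (limma adjusted p = 0.23 and 0.13). Cerebellum alone did not call Atp1b2, which fell 1.14-fold there (limma adjusted p = 0.094). Atp1b1 as deposited was lower in prefrontal NeuN+ (144 and 147 FPKM) than in prefrontal NeuN- (150 and 152), and Eno1 shares its locus with Eno1b. In the pair of G protein subunits, both the neuronal Gnao1 and Gnai2 were shared and lower; Gnao1 stood at 10.6 and 9.16 against 32.3 and 29.7, and at 29.4 and 30.3 against 45.1 and 43.7. In the pairs Snap25 and Snap23, Vamp2 and Vamp3, and Elavl3 and Elavl1 neither member was shared. Ptbp2 was not shared either, and Ptbp1 was below the FPKM minimum.

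**Figure D5:**
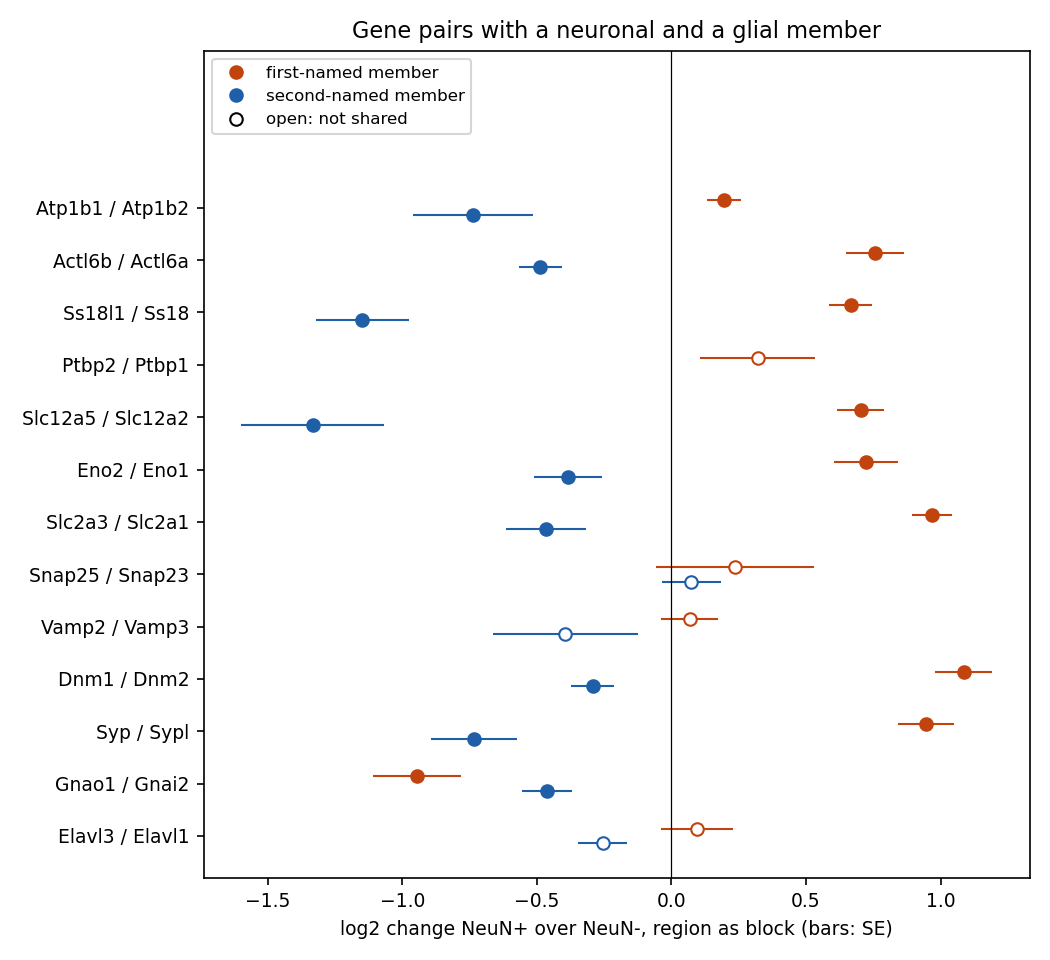
Log2 change NeuN+ over NeuN- with region as a block for the members of 13 gene pairs, the neuronal member first (orange); bars are the standard error and hollow points were not shared. In 8 pairs a filled orange point lies to the right and a filled blue point to the left of 0. Gnao1 lies to the left. Over all features 18.0% were shared and higher and 22.5% shared and lower.

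Long noncoding RNA genes had 12 of 14 members tested, with 5 shared and higher and 3 lower. The share higher was 41.7% against 18.0% of all features, and the share lower, 25%, was near the 22.5% of all features. The imprinted RNAs Meg3, Rian and Mirg, neighbours in 1 maternally expressed cluster, were all higher, as were Ipw and Snhg11. Ipw stood at 321 and 379 FPKM against 20.4 and 24.5 in prefrontal cortex and at 378 and 371 against 94.9 and 86.4 in cerebellum. Mirg stood at 3.90 and 3.53 against 0.133 and 0.0486, and at 4.87 and 3.77 against 1.06 and 1.33. The feature named Snhg14, of the same imprinted domain as Ipw, was lower, at 1.96 and 1.37 against 10.5 and 11.96 and at 5.58 and 5.76 against 15.9 and 16.3. It covers only chr7:67114463-67119317, apart from Ipw at chr7:66874528-66934248. Its value describes that stretch and not RNA from the rest of the domain. Small RNA features overlap Meg3, Rian, Mirg and Ipw, and Malat1 was left out because its value failed in 6 libraries.

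The difference of the regional changes was called in 10074 of 14367 features (70.1%) and in 3551 of the 5821 shared features (61.0%), 1475 of the higher and 2076 of the lower. Of the latter 947 had the larger loss in prefrontal cortex, and of the former 740 had the larger gain there. By more than 2 on the log2 scale (limma treat, adjusted p under 0.05) it differed in 376 features (2.62%), of which 47 were shared. Among those 47 were the noncoding RNAs Snhg11, with a gain of 5.43 in prefrontal cortex and 0.45 in cerebellum, and Meg3, with gains of 5.45 and 1.27. Kalrn, an exchange factor of dendritic spines, gained 4.21 in prefrontal cortex and 0.40 in cerebellum on the log2 scale. It stood at 39.8 and 40.7 against 1.59 and 1.37 FPKM and at 0.439 and 0.508 against 0.133 and 0.110. The cerebellar levels are so low that log2(scaled FPKM + 1) understates the change there. By contrast Cacna2d1, a calcium channel subunit, gained 0.75 in each region, and the gains of Srrm3, Homer1 and Peg3 differed between the regions by -0.01, 0.02 and 0.03 (cerebellar minus prefrontal).

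Measures that the shared definition did not use were compared as descriptions. The genomic span of the loci in the tables had a median of 20579 bases for all features, 28477 for shared and higher and 21362 for shared and lower features. At least 2-fold in both regions, the median was 37845 bases for the gains and 20174 for the losses. By mean FPKM over the libraries, the share of features shared and higher was 15.9% from 1 to 5 FPKM, 22.4% from 5 to 20, 19.7% from 20 to 100 and 9.93% from 100 upward, while the share lower stayed between 21.7% and 24.1%. Chromosome 14 had the highest share of losses, 168 of 545 features (30.8%), and chromosomes 13 and 14 the lowest shares of gains among the autosomes (14.2% and 14.1%).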

How the data were processed

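RNA of sorted nuclei was measured in 8 libraries of 1 mouse, grouped by the region and NeuN gate in the labels; each table held 24854 features in mm9. Values are gene-level FPKM by Cufflinks, as deposited by the authors, per the file headers. Also named, in the submitters' processing notes, are Trim Galore 0.3.7, Bowtie 1.1.1, TopHat2 2.1.1 and Bismark; what each did, the annotation and strand handling were not given in the sources used here. A sorting protocol in the labels (sucrose, NeuN stain, flow sorting) covers cerebellum.

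Features were joined on identifier and locus and kept with at least 1 FPKM in 2 or more libraries and status OK in all, which left 14367; 9 features had another status. Depth is unknown: fragments implied by the confidence limits came within 0.05 of whole for 49.3% to 54.2% of values under 20 fragments, so no count test was run and precision rests on the replicates. FPKM were scaled by median of ratios over 9102 features, and log2(scaled FPKM + 1) was computed from the deposited values and tested with limma 3.58.1 (R 4.3.3), Benjamini-Hochberg adjusted, with region and gate as terms (5 residual df). A fit with 1 mean per group (4 residual df) gave the regional changes and their difference. The block fit and the shared definition were tested on simulated data in which most genes had no change. The regional changes and their difference were not scored there. Alternatives changed the scaling (including none), pseudocount, filter, variance trend, status rule, replicate block and libraries.

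Leading genes were the 15 with the largest shared change in each direction, by the smaller regional change, averaging 5 or more scaled FPKM in the gate where they were higher and no predicted gene or small RNA; of each list up to 4 shared members in its main direction and 2 in the other, and the gene pairs, were eligible to be named. Other genes, including Rest, Kalrn, Snhg11 and members named for completeness of a list, were named after their values were seen. Rnu12 was removed by its RefSeq biotype after its values were seen, and the count over 4 scalings and the promoters shown were chosen then too. The members and lists were chosen with earlier results of these data known. Promoters are from RefSeq, GRCm38.p6, matched by symbol, and 23 of the 30 leading genes had one. Some genes of the lists and pairs are not reported here by name, and counts over lists include them.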

Additional observations from a re-analysis of the deposited data

Results flagged for a closer look

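Among the genes named in the text, 11 had a NeuN+ against NeuN- change that differed between the regions by more than 2 on the log2 scale by test (limma treat), and 4 of these were shared in direction. Over all tested features 376 passed this test, 47 of them shared. Differences below are the cerebellar minus the prefrontal change.

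Of the shared genes, Meg3, an imprinted long noncoding RNA, stood at 480 and 477 FPKM in prefrontal NeuN+ against 11.98 and 11.64 in NeuN-, and at 449 and 459 against 182 and 193 in cerebellum. Its NeuN+ levels were close in the regions and its NeuN- levels were not. The difference was -4.18 (SE 0.0591, limma treat adjusted p = 7.5e-06). Snhg11, also a noncoding RNA, stood at 867 and 873 against 22.5 and 23.0, and at 433 and 448 against 321 and 324, a difference of -4.98 (adjusted p = 2.7e-06). Kalrn differed by -3.81 (limma treat adjusted p = 1.3e-04). Its cerebellar levels were only 0.439 and 0.508 against 0.133 and 0.110 FPKM. At such levels log2(scaled FPKM + 1) understates a change, so the size of this difference depends on that scale. Cd63, a tetraspanin of late endosomes and lysosomes, stood at 19.3 and 19.8 FPKM against 288 and 281 in prefrontal cortex and at 55.1 and 54.4 against 132 and 138 in cerebellum, a difference of 2.27 (SE 0.0559, adjusted p = 0.044). All 4 have their larger change in prefrontal cortex, whose NeuN- libraries stood apart in summed FPKM, and the part of those libraries in the differences was not tested.

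The other 7 were not shared. The glutamate receptor genes Grin2c (7.24), Gria1 (-4.86) and Grin2b (-4.72) and the priming factor Unc13b (-3.05) moved in opposite directions in the regions. The microglial genes P2ry12 (5.28), Cd68 (4.25) and Ctss (4.10) were lower in prefrontal NeuN+, and their gates overlapped in cerebellum. The largest adjusted p among these 7 was 0.029, for Cd68 (limma treat).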

How the results depend on the processing

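The counts of shared features stayed within 1.5 times of 2585 higher and 3236 lower under every alternative run. Testing the average of the 2 regional contrasts, whose residual spread leaves out the difference between regions, moved the called features to 5089 higher and 5868 lower. Leaving out each library in turn gave 2077 to 2213 called higher, 2734 to 2912 called lower, 2077 to 2205 shared higher and 2734 to 2909 shared lower, and 1908 to 2036 higher and 2559 to 2727 lower in both regions. With the replicate number as a block, 2118 features were shared higher and 2806 lower; replicate numbers did not pair the samples (correlations of deviations from -0.045 to 0.034). Of 179 named genes 172 were called; 19 lost the call in at least 1 setting, 4 gained one and 2 reversed. Snap23, 0.07 and not called, was -0.032 on unscaled FPKM, ran from -0.00966 to 0.112 as each library was left out, and was lowest without prefrontal NeuN- replicate 1. Vamp2, 0.07 and not called, was -0.040 on unscaled FPKM, ran from -0.0135 to 0.155 likewise, and was lowest without prefrontal NeuN- replicate 2. The causes were not tested. With 2 libraries a group from 1 mouse and no depth given, low FPKM values limit what can be told.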
